A study of Rattus norvegicus with 8 samples.

Results

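Rat cortical and hippocampal neurons that received 2 agents one after the other were compared with neurons that received 1 agent, over all 8 arrays of the study. The members were chosen by their titles alone. The sequential set holds the 4 arrays titled CAT+ADDL or ADDL+CAT, and the single set holds the 4 arrays titled CATSKL or ADDL. Every culture came from Sprague Dawley rat embryos of day E18 and had spent 7 days in vitro before treatment. CATSKL cultures received 1 µM CAT-SKL for 24 h, and ADDL cultures received 1 µM ADDL for 24 h. CAT+ADDL cultures received CAT-SKL for 24 h and then ADDL for a further 24 h, and ADDL+CAT cultures received the same agents in the reverse order, each at 1 µM. Each arm has 2 arrays, numbered 1 and 2. On every array the treated RNA carried the red dye Cy5 and RNA of vehicle-treated neurons carried the green dye Cy3, with no dye swap. Whether the vehicle RNA came from 1 pool, or was matched to the longer treatment, is not given in the labels. The value compared is the log2 ratio of treated over vehicle, and the difference is the mean of the sequential arms minus the mean of the single arms.

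CAT-SKL is a form of the hydrogen peroxide-degrading enzyme catalase that carries a peroxisome-targeting signal and enters cells. ADDLs are soluble oligomers of the amyloid-beta peptide, which bind synapses and disturb synaptic signalling and redox balance in cultured neurons. Neurons answer changes in firing and calcium with a wave of immediate early genes such as Egr1 and Egr2, followed by effectors that include the neuropeptide precursors Pdyn, Scg2 and Tac1. Oxidants act largely through the transcription factor NRF2, whose targets include the sulfiredoxin gene Srxn1. Embryonic cultures of this kind also hold some astrocytes, oligodendrocyte precursors and microglia, each with marker genes of its own.

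The upstream bases of 4 genes are shown because Pdyn, Scg2 and Tac1 had the smallest p in the neuropeptide list and Srxn1 the smallest in the NRF2 list. Pdyn, Scg2 and Tac1 encode neuropeptide or secretory granule precursors, and Srxn1 repairs oxidised peroxiredoxins. Each run holds the 250 bases before the RefSeq start of the gene in the GRCr8 build, 5′ to 3′ on the gene's strand: Pdyn at chr3:137366504-137366753 (minus strand), Scg2 at chr9:88256867-88257116 (minus strand), Tac1 at chr4:36645333-36645582 (plus strand) and Srxn1 at chr3:161064562-161064811 (plus strand). Capitals mark the letters TGACG on either strand, the short core of the cAMP response element, and overlapping matches are joined.
Pdyn: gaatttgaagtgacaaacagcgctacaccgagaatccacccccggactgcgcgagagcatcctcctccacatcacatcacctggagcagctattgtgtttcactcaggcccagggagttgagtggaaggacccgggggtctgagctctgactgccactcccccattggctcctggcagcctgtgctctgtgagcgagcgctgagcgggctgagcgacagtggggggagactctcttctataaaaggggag
Scg2: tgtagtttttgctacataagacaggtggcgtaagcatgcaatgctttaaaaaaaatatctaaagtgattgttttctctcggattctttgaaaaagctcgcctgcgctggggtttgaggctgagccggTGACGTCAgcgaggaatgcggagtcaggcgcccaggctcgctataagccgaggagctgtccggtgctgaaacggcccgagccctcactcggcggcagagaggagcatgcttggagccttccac
Tac1: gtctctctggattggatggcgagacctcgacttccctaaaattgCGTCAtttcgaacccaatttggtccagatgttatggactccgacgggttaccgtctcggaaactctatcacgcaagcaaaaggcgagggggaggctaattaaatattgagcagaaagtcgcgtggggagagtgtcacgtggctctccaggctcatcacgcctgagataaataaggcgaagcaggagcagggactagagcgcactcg
Srxn1: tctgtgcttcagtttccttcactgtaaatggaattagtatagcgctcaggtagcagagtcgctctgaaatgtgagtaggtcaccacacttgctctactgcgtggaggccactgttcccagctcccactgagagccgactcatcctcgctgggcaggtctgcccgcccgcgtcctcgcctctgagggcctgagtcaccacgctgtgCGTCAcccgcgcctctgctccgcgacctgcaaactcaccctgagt
The whole palindrome TGACGTCA stands in the Scg2 window 123 bases before the start, and 1.59% of 33469 windows of this length hold it. Tac1 holds 1 short core 206 bases before the start and Srxn1 holds 1 at 45 bases, both on the minus strand. The short core occurs in 18.2% of the windows, and these letters are not in the Pdyn window. The core TGACNNNGC of the antioxidant response element was also searched on both strands. It matched in the Scg2 window at 106 bases and in neither Srxn1, Tac1 nor Pdyn, and 10.1% of the windows hold it. Only these letters were searched, so other forms of the element, in Srxn1 or elsewhere, were not looked for.

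The sets differ in more than the number of agents. All single arrays lay in row 1 of the slide and all sequential arrays in row 2, and the sequential cultures were treated for longer. Number of agents, duration and slide row cannot be told apart. The share of probes well above background in Cy3 was 73.8% to 76.96% in the sequential set and 71.1% to 74.8% in the single set, and the local Cy3 background was 26 to 27 against 27 to 29. The array ADDL+CAT 2 had the lowest median Cy5 signal, 87.5 against 97 to 127.5 elsewhere. The arrays CAT+ADDL 1 and 2 differed by about the noise of duplicate spots (the correlation between first and second spots of their difference was 0.0072, against 0.29 to 0.71 for the 27 other pairs). They were therefore counted as 1 sample, which leaves 7. This check used the ratio only, but the averaging was applied to Cy3 and Cy5 as well. In Cy3 the levels of these 2 arrays, centred on each gene's mean, correlated at r = -0.11. Such centring by itself pulls correlations of unrelated arrays below 0. In Cy3 the 4 pairs of the same arm averaged -0.01 and the 16 pairs from different sets -0.20. In the vehicle channel 15 of the 18 pan-neuronal markers were tested, and all 15 were well above background on all 8 arrays. So were 18250 of all 22382 genes and accessions tested (81.5%). Markers of other cells were also measured, with 16 of 17 tested astrocyte markers and 13 of 16 tested microglia markers above background on all 8 arrays. Only probes above background on at least 2 arrays were tested, so these counts do not show which cells the cultures held.

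Among single arrays, CATSKL 2 stood apart from its own replicate. After each gene was centred on its mean, the ratios of CATSKL 1 and CATSKL 2 correlated at r = -0.17 across 22382 genes and accessions, which are not independent. The corresponding values were 0.12 for the ADDL arrays, 0.20 for the ADDL+CAT arrays and 0.40 for the CAT+ADDL arrays. Because centring pulls these values below 0, -0.17 shows a lack of likeness and not opposite changes. Pairs from different sets averaged -0.11, and pairs from different arms of 1 set averaged -0.32. CATSKL 2 was closest to ADDL+CAT 1 (0.26) and CATSKL 1 was closest to CAT+ADDL 1 (0.37). Each array was used as titled, and whether the RNA of CATSKL 2 matches its title was not tested. The main results that rest on CATSKL 2 are therefore given with and without it, though not for every gene.

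No gene passed the test for a difference between the sets in its ratio to vehicle. Of 22382 genes and accessions tested with limma, 0 (0%) passed a Benjamini-Hochberg threshold of 0.05, with adjusted p no lower than 0.9998. An unadjusted p below 0.05 was found for 462, fewer than the 1119.1 that 5% would give. They were 260 higher (1.16%) and 202 lower (0.903%) after sequential treatment. This number depended on the model. It was 1251 with the CAT+ADDL arrays counted separately and 1238 with replicate as a block, both above 1119.1. The 4 sequential arrays lay entirely above the 4 single arrays for 257 (1.15%) and entirely below for 248 (1.11%). The median difference was 0.00 on the log2 scale with an SD of 0.08 across genes, and only 2 genes or accessions differed by 1.5-fold or more. In this fit the 95% confidence interval of the difference lay within 1.5-fold in either direction for 99.3% of all tested. At the median it reached 0.16 to either side. These sizes and intervals belong to the main processing, whose background offset shrinks fold changes of dim genes. They do not show that genes were unchanged, and some differences were several times larger in other settings (last section).

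The scatter of the ratios lay mostly inside the sets. Differences between the sets carried 12.6% of the sum of squares over the 8 arrays and used 14.3% of the degrees of freedom. Differences between the 2 arms of a set carried 43.2% on 28.6% of the degrees of freedom, and differences between arrays of an arm carried 44.2% on 57.1%. On the first principal component, with 34.8% of the variance, the ADDL+CAT arrays scored 0.05 and 0.12, the CAT+ADDL arrays -0.06 and -0.05, CATSKL 1 -0.10, and the other single arrays between -0.01 and 0.04. The 2 sequential orders therefore sat on opposite sides of 0, and the mean of the sequential set lies between arms that differ from each other.

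**Figure D1:**
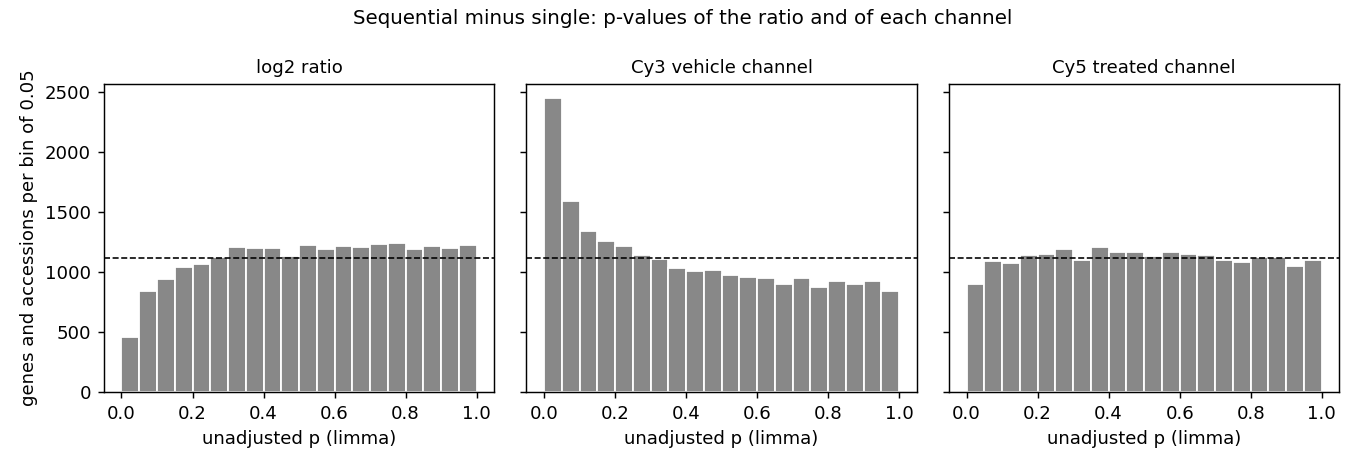
Histograms of the unadjusted limma p for the sequential minus single difference, in bins of 0.05 (x axis) with the number of genes and accessions per bin (y axis); the dashed line marks the 1119.1 per bin of an even spread. The lowest bin holds 462 for the ratio, 2447 for the Cy3 vehicle channel and 905 for the Cy5 treated channel.

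The genes with the smallest p among those whose arrays did not overlap showed small differences, and none passed adjustment (adjusted p at or above 0.9998, limma). Haus3 encodes a subunit of the augmin complex, which branches spindle microtubules. Its log2 ratios were 0.23, 0.21, 0.04 and 0.16 in CAT+ADDL 1, CAT+ADDL 2, ADDL+CAT 1 and ADDL+CAT 2, against -0.04, -0.10, -0.08 and -0.06 in CATSKL 1, CATSKL 2, ADDL 1 and ADDL 2. Every sequential array was above 0 and every single array below it, a difference of 0.23 ± 0.06 (SE, 95% interval 0.09 to 0.38). A second Haus3 probe gave 0.09. Nsun4, a methyltransferase of mitochondrial ribosomal RNA, had ratios of 0.06, 0.07, 0.11 and 0.13 after sequential and -0.18, -0.05, -0.22 and -0.11 after single treatment. Its difference was 0.23 ± 0.07 (0.08 to 0.39), the single arrays being spread more widely than the sequential ones. Zmiz1, a transcriptional coactivator, differed by 0.25 ± 0.08, but its second probe gave -0.08.

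The remaining genes higher by this rule were Slc35b4, a nucleotide sugar transporter, Ift43, a subunit of the cilium transport complex, Suco, Hcrtr2, an orexin receptor, Nap1l5, Zfp458, a zinc finger gene, Sowahc, and the open reading frames C9h6orf141 and C7h8orf76. Their differences were 0.16 to 0.23. Suco and Ift43 were below or near vehicle on most arrays of both sets. For Suco the ratios were -0.16, -0.11, -0.11 and -0.13 after sequential and -0.26, -0.20, -0.35 and -0.43 after single treatment, so the sequential arrays were nearer to vehicle. Nap1l5 was above vehicle on every array, at 0.16, 0.24, 0.31 and 0.36 against 0.05, 0.09, 0.10 and 0.16.

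Among genes lower by the same rule, Rflnb had the narrowest sequential values. It encodes refilin B, which organises actin filaments with filamin. Its ratios were 0.03, 0.04, 0.05 and 0.01 in the sequential arrays and 0.28, 0.23, 0.36 and 0.24 in the single arrays. All 4 single arrays were above vehicle and all 4 sequential ones close to it, a difference of -0.25 ± 0.06 (-0.39 to -0.10). Il34, a ligand of the colony-stimulating factor 1 receptor on microglia, had 0.13, 0.06, -0.08 and -0.09 against 0.47, 0.19, 0.16 and 0.29. The difference was -0.27 ± 0.08 (-0.46 to -0.08). Laptm5, a lysosomal membrane protein of microglia and blood cells, had 0.15, 0.10, -0.15 and -0.04 against 0.23, 0.21, 0.46 and 0.20, a difference of -0.26 ± 0.08. Tubb3, the neuronal beta-tubulin, had -0.07, -0.12, -0.24 and -0.58 against 0.11, -0.06, 0.09 and -0.06. Its difference of -0.27 ± 0.10 drew most on ADDL+CAT 2.

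The other genes lower by this rule differed by -0.26 to -0.17. They were Cmss1, Kcnip4, a partner of Kv4 potassium channels, Camk1d, a calcium/calmodulin-dependent kinase, Ppp1r1b, the dopamine-regulated phosphatase inhibitor DARPP-32, Clec4a3, a C-type lectin, Plvap, an endothelial protein, Nkd2, an inhibitor of Wnt signalling, and Lin7b, a synaptic PDZ scaffold. For Ppp1r1b the ratios were -0.21, -0.26, -0.27 and -0.35 after sequential and -0.15, -0.03, -0.08 and -0.04 after single treatment, and its second probe gave -0.03. Kcnip4 had -0.04, 0.04, -0.12 and -0.20 against 0.24, 0.10, 0.26 and 0.11. Leaving out CATSKL 2 moved Haus3 to 0.22 and Rflnb to -0.26.

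**Figure D2:**
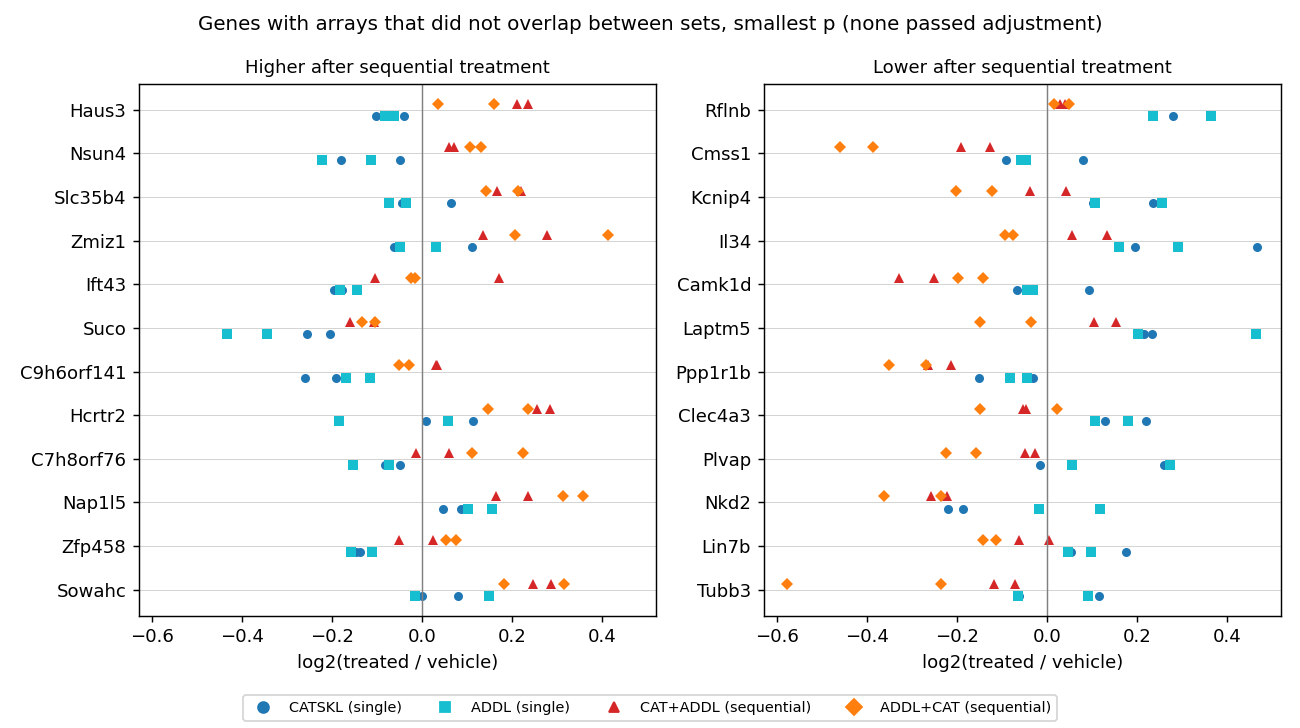
Log2 ratios of treated over vehicle (x axis) on each of the 8 arrays for the 12 genes higher and the 12 lower in the sequential set, one row per gene; points are single arrays, coloured by arm. The rows were chosen because the sets do not overlap, so the gap between colours is a description. The sequential minus single difference, which is not plotted, is farthest from 0 at -0.27, for Il34 and Tubb3.

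No gene of the neuronal activity and neuropeptide lists passed adjustment, and the lists' values overlapped between the sets. Of 24 immediate early genes tested, 20 had a difference above 0, and the list's median was 0.12, beside 0.00 over all genes tested. On single arrays that list's median log2 ratio was -0.15 and -0.12 in CAT+ADDL, 0.04 and 0.13 in ADDL+CAT, -0.32 in CATSKL 1, 0.07 in CATSKL 2, and -0.18 and -0.28 in ADDL. Egr2 alone had an unadjusted p below 0.05 (0.35 ± 0.13), and 1.16% of all genes tested were higher at that p. Of 22 neuropeptide genes, 15 were above 0 with a median of 0.11, and 5 had an unadjusted p below 0.05, all of them higher (background 1.16%): Pdyn, Scg2, Tac1, Gal and Pnoc. Pdyn encodes the precursor of the dynorphin opioids. Its ratios were 0.17, 0.33, 0.48 and 0.66 in CAT+ADDL 1, CAT+ADDL 2, ADDL+CAT 1 and ADDL+CAT 2, -0.28 in CATSKL 1, 0.50 in CATSKL 2 and -0.37 in each ADDL array. The sequential arrays were all above vehicle, 3 single arrays were below it, and CATSKL 2 lay within the sequential range.

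Scg2, Tac1 and Gal, described here because they had small p in their list, showed a like order of arrays. Other members did not share the direction: 7 of the 22 were at or below 0, among them Npy, the neuropeptide Y precursor (-0.12), Sst, the somatostatin precursor (-0.11), and the granins Chgb (-0.09) and Chga (-0.06). Scg2, a granin of dense-core vesicles, had 0.05, 0.03, 0.43 and 0.48 after sequential treatment, 0.29 in CATSKL 2 and -0.27, -0.30 and -0.31 in the other single arrays. Tac1, the substance P precursor, had 0.01, 0.01, 0.32 and 0.54, then 0.26 in CATSKL 2 and -0.36, -0.36 and -0.39. In both genes the CAT+ADDL arrays were near vehicle and the ADDL+CAT arrays above it. Gal, the galanin precursor, had -0.20, -0.21, 0.07 and 0.19, with 0.17 in CATSKL 2 and -0.79, -0.82 and -0.73 in the others. Differences with all arrays were 0.54 ± 0.17 for Pdyn, 0.39 ± 0.12 for Scg2, 0.43 ± 0.14 for Tac1, 0.51 ± 0.20 for Gal and 0.45 ± 0.18 for Pnoc, the precursor of nociceptin. Without CATSKL 2 they were 0.73 for Pdyn, 0.53 for Scg2, 0.59 for Tac1, 0.75 for Gal and 0.67 for Pnoc. Without CATSKL 1 they were 0.34, 0.25, 0.28, 0.26 and 0.23 in the same order. The median of the immediate early list was 0.23 without CATSKL 2 and 0.06 without CATSKL 1, and that of the neuropeptide list was 0.13 and 0.06.

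Genes outside these lists followed the same split, and 4 of them are described here. They were singled out after their values had been seen. Gprc5a, an orphan receptor induced by retinoic acid, had ratios of -0.32, -0.26, 0.29 and 0.34 in the sequential arrays, 0.36 in CATSKL 2 and -0.85, -0.81 and -0.76 in the other single arrays. Emp1, an epithelial membrane protein, had -0.18, -0.16, 0.24 and 0.16, with 0.52 in CATSKL 2 and -0.71, -0.81 and -0.89 in the others. Alkal2, a ligand of the receptor tyrosine kinase ALK, had -0.08, -0.16, 0.35 and 0.47, with 0.38 in CATSKL 2 and -0.78, -0.64 and -0.63. Cdhr1, a cadherin of photoreceptors measured with 10 spots, ran the other way, with 1.82, 1.82, 0.13 and 0.03, then 0.11 in CATSKL 2 and 2.43, 2.28 and 2.17. It was far above vehicle in CATSKL 1, both ADDL arrays and both CAT+ADDL arrays, and near vehicle in the remaining 3.

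With all arrays the differences were 0.53 ± 0.24 for Gprc5a, 0.49 ± 0.25 for Emp1, 0.56 ± 0.24 for Alkal2 and -0.80 ± 0.46 for Cdhr1, none passing adjustment. Without CATSKL 2 they became 0.83, 0.80, 0.86 and -1.38, and without CATSKL 1 they were 0.23, 0.18, 0.27 and -0.22. In each of these fits 1 array alone stands for its arm. The genes were also picked for this split, so no p-value is given for them. The heat shock gene Cryab, a small chaperone, had the same split among the single arrays only. Its difference was 0.46, and 0.15 to 0.77 over the alternatives tried. Its ratio was 0.49 in CATSKL 2, -0.96 to -0.74 in the other single arrays and -0.09 to 0.04 in the sequential ones. Without CATSKL 1, 1 accession had a difference of 2.42. Its ratio was -4.89 in CATSKL 2 and between -0.28 and 0.13 on every other array. No gene passed when any of the other 6 arrays was left out.

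**Figure D3:**
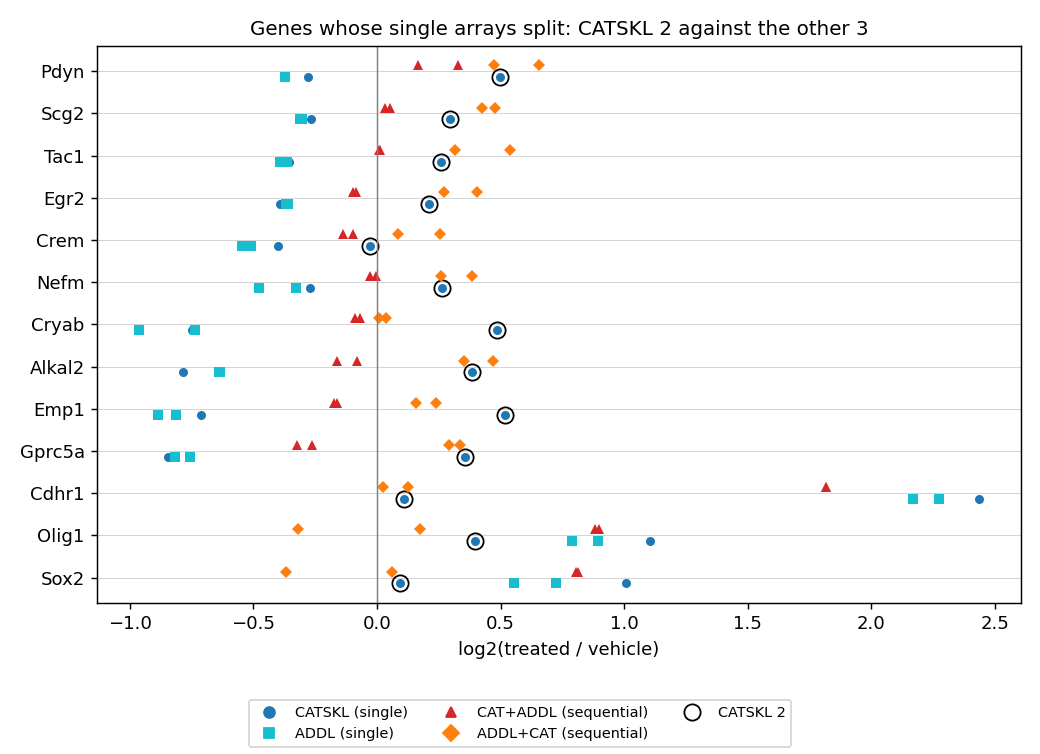
Log2 ratios of treated over vehicle (x axis) on each of the 8 arrays for 13 genes (rows); points are single arrays coloured by arm, and a ring marks CATSKL 2. In Pdyn, Scg2, Tac1, Egr2, Emp1, Gprc5a and Alkal2 the ringed array lies nearer to the ADDL+CAT arrays than to the other 3 single arrays, which lie lowest; for Cdhr1, Olig1 and Sox2 the ringed array again lies on the side of the ADDL+CAT arrays, here the low side.

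The lists of redox defence genes had median differences close to 0, though single members such as Srxn1 and Gpx1 lay farther from it. The list of peroxide and superoxide removal had a median difference of 0.00 over 22 genes, 11 of them above 0. Cat, the endogenous catalase gene, had ratios of -0.05, -0.15, -0.25 and -0.28 after sequential and -0.16, -0.16, -0.48 and -0.03 after single treatment, a difference of 0.02 ± 0.11 (-0.22 to 0.27). Gpx1, which reduces hydrogen peroxide with glutathione, was the only member with an unadjusted p below 0.05 (-0.18 ± 0.07, background 0.903% lower). The 19 NRF2 targets tested had a median of -0.01. Among them Srxn1 had 0.07, 0.12, 0.18 and 0.22 after sequential treatment, -0.05 and 0.12 in the CATSKL arrays and -0.36 and -0.27 in the ADDL arrays. Its difference was 0.29 ± 0.07 (0.13 to 0.45), and the ADDL arrays were the lowest of the 8. The 26 peroxisome genes had a median of 0.01, with Pex5, the receptor that imports proteins carrying the SKL signal, at 0.01 ± 0.08. App, the amyloid precursor, differed by 0.03 ± 0.11, and the 17 genes of amyloid processing had a median of -0.03.

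Stress, sterol and survival genes likewise had no member that passed. Endoplasmic reticulum and integrated stress genes (22 tested) had a median of -0.06, with 4 above 0 (-0.11 without CATSKL 2, -0.03 without CATSKL 1), and Calr, an endoplasmic reticulum chaperone, differed by -0.21 ± 0.10. Heat shock chaperones (17 tested) had a median of 0.03, p53 targets (18) 0.03 and sterol synthesis genes (24) 0.03. Gadd45a, a stress gene of growth arrest and DNA repair, differed by 0.24 ± 0.08. It was the only p53-list member with an unadjusted p below 0.05 (background 1.16% higher). Of the clock genes, Ciart had -0.16 ± 0.06. Oxidative phosphorylation (28 tested), cytosolic ribosomal proteins (26), glycolysis (24) and lysosome genes (26) had medians between -0.02 and 0.02.

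Neuronal lists differed in sign. The 19 immature neuron genes had a median difference of -0.06 with 17 at or below 0. The median of the list was -0.06, -0.05, -0.01 and -0.06 on the sequential arrays and 0.00, -0.01, 0.00 and 0.03 on the single arrays, with ADDL+CAT 1 and CATSKL 2 at nearly the same value. Tubb3 and Tubb2b (-0.18 ± 0.09), both tubulins of growing neurons, were the lowest by p, while Dclk1, a microtubule-associated kinase, was at 0.21 ± 0.10. Neuronal maturation genes (22) had a median of 0.04. The neurofilament gene Nefm had 0.00, -0.03, 0.26 and 0.39 after sequential treatment, 0.27 in CATSKL 2 and -0.27, -0.48 and -0.33 in the other single arrays, a difference of 0.36 ± 0.13. Presynaptic (23), postsynaptic (26), GABAergic (22), glutamatergic (10) and ion channel (24) genes had medians of -0.05, -0.01, -0.04, -0.03 and 0.04. Camk2b, a postsynaptic kinase, was lower without overlap at -0.23 ± 0.09 (background 1.11% of genes), and its second probe gave -0.05. Calb1, a calcium buffer of interneurons, had 0.23 ± 0.09.

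Glial markers differed between arrays within both sets. The median log2 ratio of 17 astrocyte markers was 0.48 and 0.52 in the CAT+ADDL arrays and 0.23 and -0.02 in the ADDL+CAT arrays, against 0.75, 0.20, 0.31 and 0.58 in CATSKL 1, CATSKL 2, ADDL 1 and ADDL 2. The sets overlapped, and the low arrays were CATSKL 2 and both ADDL+CAT arrays. The median difference was -0.16 with 16 of 17 members below 0 (all but Gjb6, a gap junction protein, at 0.03), it was -0.32 without CATSKL 2 and -0.04 without CATSKL 1, and no member had an unadjusted p below 0.05. Summed over the list, the Cy5 level was 20158 to 36853 in the sequential set and 24345 to 44525 in the single set, while the Cy3 vehicle level was 19194 to 20262 and 19888 to 20156. Oligodendrocyte lineage markers (15) had medians of 0.53, 0.46, 0.01 and -0.09 in the sequential and 0.48, 0.06, 0.17 and 0.15 in the single arrays, a median difference of -0.09 that was -0.16 without CATSKL 2 and 0.04 without CATSKL 1. Olig1, a lineage transcription factor, differed by -0.39 ± 0.18, and Sox2, a progenitor factor, by -0.27 ± 0.21. These were -0.57 and -0.49 without CATSKL 2, and -0.21 and -0.04 without CATSKL 1. In bulk RNA, fewer cells of a type and less RNA per cell cannot be told apart, and the part of glial markers in the neuronal differences was not tested.

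Microglia markers (16 tested) had a median of -0.09 with 15 below 0, and 3 had an unadjusted p below 0.05, all lower (background 0.903%): Laptm5, Fcer1g, an Fc receptor subunit (-0.26 ± 0.08), and Aif1, the marker protein IBA1 (-0.21 ± 0.09). Second probes of Fcer1g and Aif1 gave -0.19 and -0.35. The chemokine gene Ccl3 went the other way, with 0.32, 0.38, 0.69 and 0.83 against 0.66, 0.32, 0.18 and -0.13, a difference of 0.29 ± 0.11, and the median over 16 inflammatory genes was 0.03. Il1b, which encodes interleukin-1 beta, differed by 0.19 ± 0.08 but was well above background in Cy3 on 0 arrays and in Cy5 on 2. B2m, the light chain of class I antigen presentation, was above vehicle on all arrays and differed by 0.20 ± 0.07. Endothelial (13), fibroblast (14) and progenitor (18) lists had medians of -0.03, 0.02 and 0.00.

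**Figure D4:**
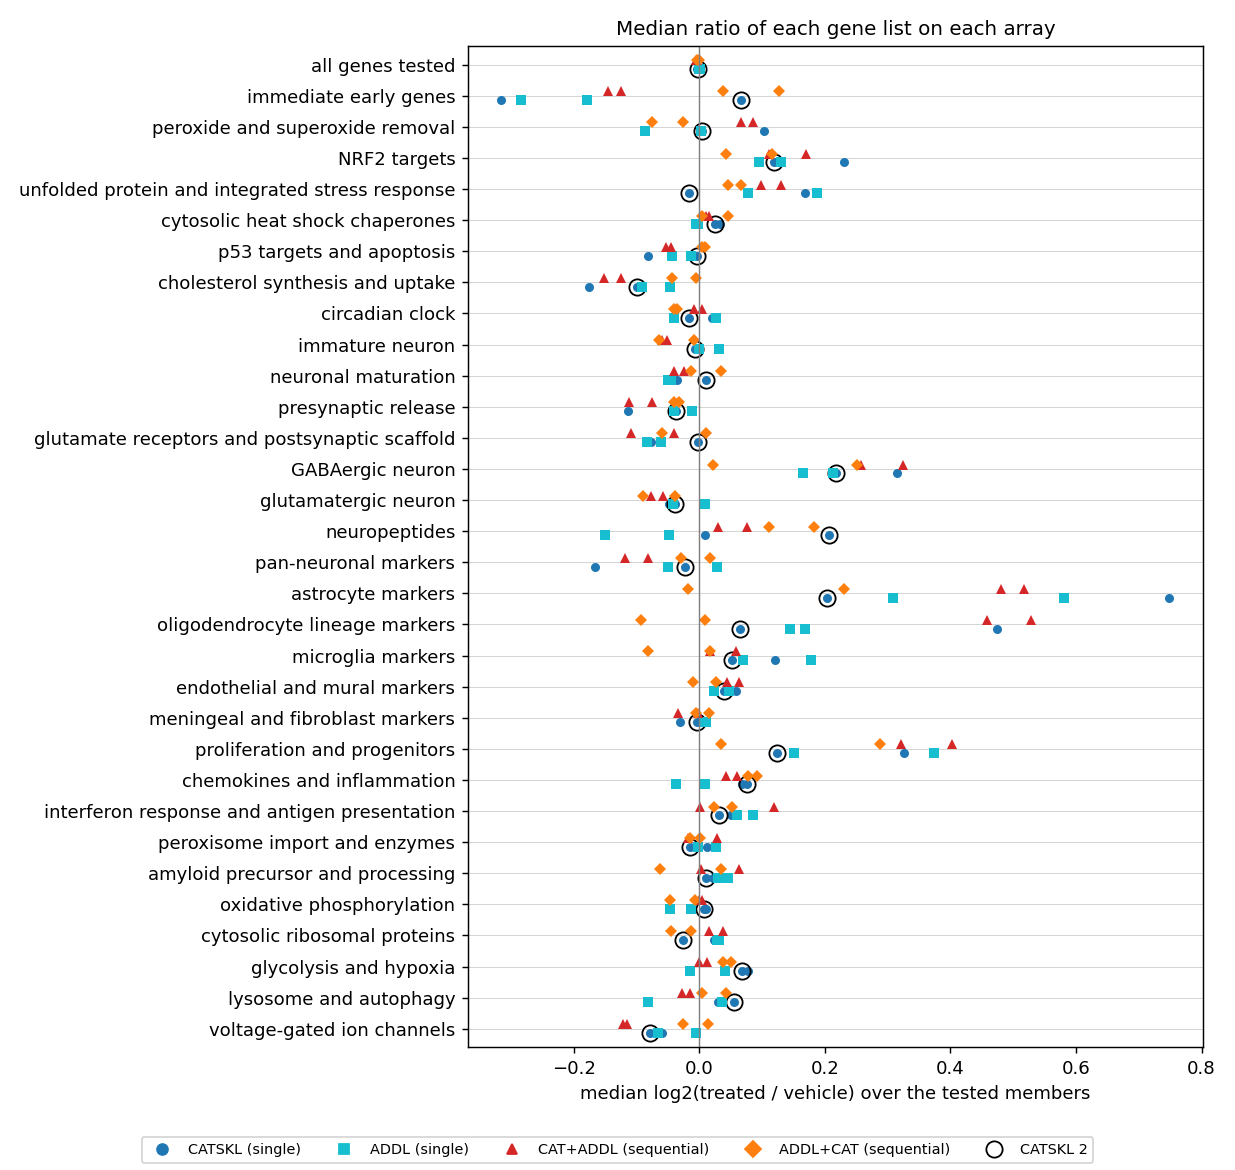
Median log2 ratio of treated over vehicle (x axis) of each gene list (rows) on each of the 8 arrays; points are arrays coloured by arm, and a ring marks CATSKL 2. In the astrocyte row the CAT+ADDL arrays lie at 0.48 and 0.52 and the ADDL+CAT arrays at 0.23 and -0.02.

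In the main fit the vehicle channel itself differed between the sets, but this depended on the processing. The 76 calls given below became 4 with no background correction and 0 with the scanner software's processed signals. Vehicle cultures received neither agent. In Cy3, 69 genes or accessions (0.308%) were higher and 7 (0.0313%) were lower on the sequential arrays with an adjusted p below 0.05 (limma), 30 of the 76 with a symbol, and 2447 had an unadjusted p below 0.05. In the treated Cy5 channel 0 (0%) passed, with 0.383 as the lowest adjusted p (limma), and 905 had an unadjusted p below 0.05. These fits leave out the spread between the 2 CAT+ADDL arrays, which were averaged. With the CAT+ADDL arrays counted separately, 71 were called higher in Cy3 and 0 lower, and the smallest adjusted p was 0.0053 (limma). No lower call remained with 2 set means, or with replicate or slide column as a block, either. Slc39a12, a zinc transporter, had log2 Cy3 levels of 7.08, 7.19, 7.13 and 7.19 on the sequential arrays and 6.34, 6.43, 6.57 and 6.89 on the single arrays. Its Cy3 level was higher by 0.59 ± 0.07 (adjusted p = 0.0202, limma), and its Cy5 level differed by 0.46. Gal3st4, a sulfotransferase, was higher by 0.47 ± 0.05 in Cy3 (adjusted p = 0.0131), with 0.40 in Cy5, and its 2 spots gave 0.47 and 0.48. Pitx1, a homeobox factor of limb and pituitary, was higher by 0.40 ± 0.04 (adjusted p = 0.00842), with 0.25 in Cy5. Rcvrn, the photoreceptor calcium sensor recoverin, was higher by 0.39 ± 0.06 (adjusted p = 0.0408).

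Most of these differences had the same sign in both dyes. Of the 76, 75 (98.7%) had the same sign in Cy5, beside 14540 of all 22382 tested (65.0%), and their medians were 0.29 in Cy3, 0.20 in Cy5 and -0.08 in the ratio. In the ratio 8 of the 76 had an unadjusted p below 0.05, beside 462 of all 22382, and the ratio shares its Cy3 values with the rule that picked them. Across all 22382 the Cy3 and Cy5 differences correlated at r = 0.49, as a description, since the dyes of an array share its spots and its place on the slide. Calls were more frequent where a probe had fewer spots, with 53 of 9202 (0.576%) for 1 spot, 22 of 11973 (0.184%) for 2 spots and 1 of 1207 (0.0829%) for 10 spots. The genes with the smallest p in Cy5 were Gal3st4 and the open reading frame C14h5orf52 (0.40 each), then Vom1r37, a vomeronasal receptor (0.33), Slc6a2, the noradrenaline transporter (0.34), and Sfrp5, a secreted Wnt inhibitor (0.32). In Cy3 they differed by 0.47, 0.44, 0.35, 0.37 and 0.28. Lower in Cy5, with differences nearer to 0 in Cy3, were Abcg1, a cholesterol exporter (-0.30 and -0.05), Rhbdl1, a rhomboid protease (-0.24 and -0.06), Dbndd1 (-0.22 and -0.10), Cpt1c, a neuronal carnitine palmitoyltransferase (-0.20 and -0.08), and Ppp1r1b (-0.20 and -0.01), and none of these Cy5 differences passed adjustment.

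The largest called vehicle difference came from 1 array. Sfxn1, a mitochondrial serine transporter, had a Cy3 level of 13.26 in CAT+ADDL 2 and 9.23 to 9.47 on the other 7 arrays, and its 2 spots gave differences of 0.04 and 2.05. Its difference of 1.04 (adjusted p = 3.59e-05, limma) was 0.10 without CAT+ADDL 2. That p-value does not count the spread between the 2 CAT+ADDL arrays. Xpnpep2, an aminopeptidase, and Inhbb, an inhibin subunit, had their ratios of -1.25 and -0.95 on the same array, and their ratio differences of -0.33 and -0.21 were -0.03 and 0.02 without it. These 3 genes were named after their values had been seen. Tmem86a, a lysoplasmalogenase, was lower in Cy3 by -0.25 ± 0.03 (adjusted p = 0.0283) and stood at 8.55 in CAT+ADDL 2 against 9.27 to 9.40 elsewhere, with -0.06 without it. Nudt13, a Nudix hydrolase, was the only other gene with a symbol among the 7 lower calls and was named after its values had been seen. Its Cy3 level was 7.16 in CAT+ADDL 2 and 8.37 to 8.46 elsewhere, and its difference of -0.32 (adjusted p = 0.0131, limma) was -0.02 without that array. Kcnc4, Mageb3, Sesn3 and Mgme1, whose sets did not overlap, differed by -0.26 to -0.16 in Cy3 and did not pass. The number of calls in Cy3 was 11 without CATSKL 1, 10 without CATSKL 2, 37 without ADDL 2, 230 without CAT+ADDL 1, 6 without ADDL+CAT 1 and 4 without ADDL+CAT 2. It was 4 with no background correction and 0 with the scanner software's processed signals.

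**Figure D5:**
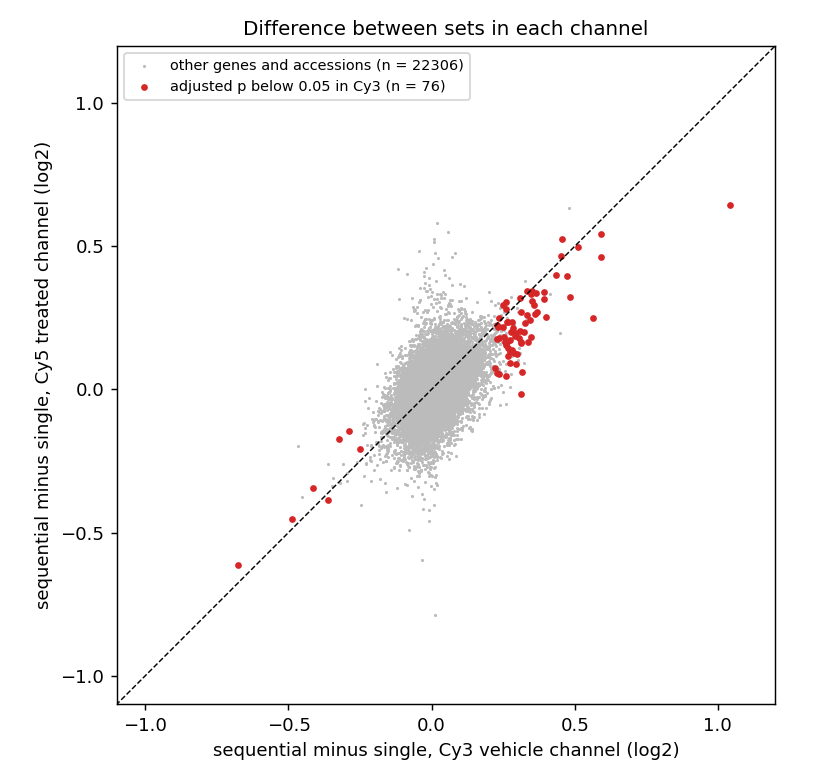
Sequential minus single difference in the Cy3 vehicle channel (x axis, log2) against that in the Cy5 treated channel (y axis, log2), one point per gene or accession; red points passed in Cy3 and the dashed line marks equality. Of the 76 red points 75 have the same sign in both channels; 1 accession at -2.51 and -1.24 lies outside the axes.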

How the data were processed

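The 8 arrays were Agilent two-colour expression arrays. Per the file headers, each deposited scanner file gives the median intensity of every spot and of its local background in both channels, 0 or 1 flags for background, outliers and saturation, and a log10 ratio of Cy5 over Cy3 that Agilent Feature Extraction 11.5 (submitters' processing notes) had background-subtracted and dye-normalised. The series table repeats those log10 ratios to within 0.005, as deposited. The arrays have 30367 probes, 17998 of which were given a symbol by matching accessions to RefSeq (GRCr8).

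From the deposited intensity values, limma 3.58.1 (R 4.3.3) corrected background with normexp (offset 50) and normalised each array by loess; Aquantile scaling then gave single-channel log2 levels. The offset shrinks fold changes of dim genes. Flagged spots were dropped and spots of a probe averaged. A probe was kept if at least 2 of the 8 arrays showed it well above background in 1 of the channels or both (25278, of which 65 lacked a value), and the brightest probe stood for a gene. This left 22382 genes and accessions, 12880 with a symbol. Group means were fitted over 7 samples, with 3 residual and 5.17 prior degrees of freedom for the ratio, and Benjamini-Hochberg adjustment at 0.05. P-values measure the spread between the arrays of the CATSKL, ADDL and ADDL+CAT arms. The spread between the 2 averaged CAT+ADDL arrays does not enter them, in the ratio or in either channel. The members, the 31 gene lists (582 of 647 genes tested) and the rules were chosen with earlier results of these data known. Named were, among genes with a symbol whose sets did not overlap, the 12 higher and 12 lower in the ratio and the 5 each way per channel, those that passed first and then by smallest p, and up to 3 members per list by smallest p, with Cat, Pex5 and App throughout; some are not printed. The replicate numbers did not pair the samples. The functions were tested on simulated data.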

Additional observations from a re-analysis of the deposited data

Results flagged for a closer look

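In sets of 4 arrays, an array was listed where its gap to the nearest other exceeded the critical share of the set's range. Of 224 sets examined, 21 (9.38%) were listed, and chance lists about 5%. Genes were partly named for this split, so the share is not independent of it.

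CATSKL 2 was the far array among the single arrays for 12 of the 21. Its log2 ratios were 0.50 for Pdyn, 0.29 for Scg2, 0.26 for Tac1, 0.17 for Gal, 0.28 for Pnoc, 0.21 for Egr2, 0.49 for Cryab, 0.36 for Gprc5a, 0.52 for Emp1, 0.38 for Alkal2 and 0.11 for Cdhr1, and its Cy5 level was 8.37 for Abcg1 against 8.56 to 8.58. In CAT+ADDL 2 the ratios of Sfxn1 and Xpnpep2 were -1.63 and -1.25, and the Cy3 levels were 13.26 for Sfxn1 and 8.55 for Tmem86a and 7.16 for Nudt13. Col1a2, a fibrillar collagen gene, had a ratio of 1.83 in ADDL+CAT 1 and -0.15 to -0.06 in the other sequential arrays. Laptm5 stood at 0.46 in ADDL 1, Egr1 at -0.40 in CATSKL 1, and the Cy5 level of Dbndd1 at 9.60 in ADDL 2 against 9.54 to 9.55.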

How the results depend on the processing

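The ratio gave 0 calls in every alternative tried except 2 that left out an array (0 to 4 over the 8, with 245 to 1176 at an unadjusted p below 0.05). With CAT+ADDL as separate arrays the smallest adjusted p was 0.861 (limma), and 1251 had an unadjusted p below 0.05. Some differences varied widely in size over the alternatives. Il1b ranged from 0.12 to 1.61 (0.19 in the main fit) and Ccl3 from 0.21 to 1.03 (0.29). Pmaip1 ranged from -0.92 to -0.07 (-0.11) and Clec4a3 from -0.78 to -0.17 (-0.22). Others varied less, such as Haus3 (0.16 to 0.31) and Nsun4 (0.20 to 0.27). Some differences turned in sign. Cat was -0.0023 with 2 set means only and -0.089 (without ADDL 1) to 0.138 (without ADDL 2) when an array was left out, with -0.00012 without CAT+ADDL 1. Pex5 was -0.036 without CATSKL 1, -0.040 without ADDL 2, -0.012 without ADDL+CAT 1 and 0.053 without ADDL 1. App was -0.034 without CATSKL 1, -0.00088 without CAT+ADDL 1, -0.070 without ADDL+CAT 1 and 0.121 without ADDL+CAT 2. Sfxn1 was 0.027 and Inhbb 0.018 without CAT+ADDL 2, and -0.82 and -0.43 without CAT+ADDL 1. Col1a2 was -0.036 without ADDL+CAT 1 and 0.91 without ADDL+CAT 2. In Cy3 the calls numbered 32 with 2 set means, 41 with slide column as a block, 4 with no background correction and 0 with processed signals (smallest adjusted p = 0.0878, 1926 at an unadjusted p below 0.05), and 4 to 230 when an array was left out. The cause was not tested. In Cy5 they numbered 4 with channels scaled to a common median and 0 to 1 when an array was left out. The replicate numbers did not pair the samples (r of deviations -0.20 to 0.08). With the replicate number as a block, over 8 arrays, 0 genes passed in the ratio, 64 in Cy3 and 0 in Cy5. The number of arrays limits precision.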
